A study of Mus musculus with 2 samples.

Results

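The mouse microRNA genes numbered Mir6896 to Mir7093 are a block of hairpins named as mirtrons, and their levels were measured in the left cerebral cortex at postnatal day 10. Members were taken by symbol alone, as every gene whose GENCODE M21 symbol lies between Mir6896 and Mir7093 by its number, letters after the number allowed. The rule found 199 genes of the 2202 microRNA genes in the tables. The libraries form 1 group of 2 female B6CASTF1/J mice, first-generation B6Cast hybrids aged 10 days, untreated as far as the labels say, and no other genotype or condition was sampled. The labels number the females separately but give both the same donor entry. They are called animal 1 and animal 2 after their biological replicate numbers. The samples are whole tissue, so fewer cells of a type and less RNA per cell cannot be told apart.

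A mirtron is a microRNA hairpin that comes from an intron through splicing. In a classic mirtron the intron is the hairpin, so the spliceosome makes both of its ends and the Drosha step of the canonical pathway is bypassed. The debranched intron folds and is cut by Dicer. In a 5′-tailed mirtron the 3′ splice site makes the 3′ end of the hairpin, while extra intron sequence lies before the hairpin and must be trimmed. In this way a mirtron's 3′ arm carries the pyrimidine tract and the AG with which an intron ends.

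The sequences below show the splice-site bases at the hairpin ends. They were taken from the RefSeq table (build GRCm38.p6), which held 178 member hairpins and mature sequences of 183 members, and all 178 hairpins had the same coordinates as in the M21 annotation. Mir7080 and Mir6944 are the most abundant members, and each fills a whole intron. Mir7044 is the most abundant member with a 5′ tail. Mir1224 is a well known mouse mirtron outside the block, shown for comparison. Capitals mark GU at the start and AG at the end where that end is an intron end.
Mir7080 hairpin, chr8:123130106-123130172, plus strand: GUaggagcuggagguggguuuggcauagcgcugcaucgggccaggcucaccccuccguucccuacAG
Mir6944 hairpin, chr13:55477681-55477776, minus strand: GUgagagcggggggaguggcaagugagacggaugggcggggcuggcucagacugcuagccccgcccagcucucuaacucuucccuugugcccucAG
Mir7044 hairpin, chr6:118085192-118085263, plus strand: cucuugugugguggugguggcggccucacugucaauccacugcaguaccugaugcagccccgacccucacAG
Mir1224 hairpin, chr16:20604452-20604536, plus strand: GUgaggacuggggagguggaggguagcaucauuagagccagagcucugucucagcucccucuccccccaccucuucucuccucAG
All 4 hairpins end in AG, and the 3 that fill an intron also begin with GU.

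Both annotated arms of 8 of the 9 members that passed the detection threshold below are given next, 5′ to 3′, with the seed (bases 2 to 8, the part that pairs with a target) in capitals.
mmu-miR-7080-5p: gUAGGAGCuggagguggguuugg
mmu-miR-7080-3p: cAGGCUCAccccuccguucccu
mmu-miR-6944-5p: gUGAGAGCggggggaguggcaag
mmu-miR-6944-3p: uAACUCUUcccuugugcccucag
mmu-miR-7044-5p: gUGUGGUGgugguggcggc
mmu-miR-7044-3p: aUGCAGCCccgacccucacag
mmu-miR-7059-5p: aCCGGGGAcugcggcuuucagu
mmu-miR-7059-3p: uGUUUGCUguuuguccucccag
mmu-miR-7070-5p: gUGAGGGGagcugaggcagga
mmu-miR-7070-3p: cAGGCUCUccuucccuccag
mmu-miR-7004-5p: uUCCGUGGaugaggccugugccgu
mmu-miR-7004-3p: cCCACUCCcuccuucacgcag
mmu-miR-7066-5p: uGGGUUGGgaaaugaguagagg
mmu-miR-7066-3p: uCUACCCAuugccugccucccag
mmu-miR-7069-5p: uUGGGGGCcugggagggugacac
mmu-miR-7069-3p: cCUGCCCUgccaaccccuaca
The 16 seeds all differ. The seed of mmu-miR-7070-5p was also found in Mir6927, that of mmu-miR-7070-3p in Mir344g and that of mmu-miR-7069-3p in Mir18. The counts are per hairpin gene, so which arm the reads came from is not given in the tables.

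The block held a small share of the reads. The members took 3206 of 3806078 own-strand reads counted to microRNA genes in animal 1, or 0.0842% (exact Clopper-Pearson 95% interval 0.0813 to 0.0872). In animal 2 they took 1261 of 2602935 reads, or 0.0484% (0.0458 to 0.0512). The mean was 0.0663% ± 0.0253 (SD, n = 2). Levels are given as CPM, a gene's reads scaled to the total counted to microRNA genes in its library. A read was worth 0.263 CPM in animal 1 and 0.384 CPM in animal 2. A member listed at 0 may still have had up to 3 counts, which is 0.788 CPM in animal 1 and 1.15 in animal 2. These intervals and limits cover counting error only.

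Many members had a trace of reads and few had more. At least 1 read was found for 169 of the 199 members, or 84.9%, against 35.0% of all microRNA genes. A read in both libraries was found for 128 members, or 64.3%, against 28.2% of all genes. Genes outside the block with hairpins at intron ends were closer to the members. Of the 8 that fill an intron, 87.5% had a read. Of the 35 with the 3′ end alone at an intron end, 71.4% had a read and 62.9% had one in both libraries. A further 34 members had reads in animal 1 alone, 7 in animal 2 alone, and 30 had none. Detection was set at 10 CPM in each of the libraries (38.1 reads for animal 1, just over 26 for animal 2), and 9 members passed it. That is 4.52% of the block, while the percentage over all genes was 13.9%. The median level of a member, as the mean CPM of both libraries, was 1.30 CPM, while over all genes it was 0 because most of them had no read. Over the 35 other genes with the 3′ end alone at an intron end it was 1.63 CPM. At these levels a member without reads was not detectable at this depth.

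Reads lay on the strand of the hairpin. Against 3206 and 1261 own-strand reads, the members had 2 opposite-strand reads in animal 1 and 0 in animal 2. The 2 reads were 1 at Mir6922 and 1 at Mir7088, which had 2 and 0 own-strand reads over both libraries. All 169 members with an own-strand read had more reads on their own strand than on the other. Members lie in or beside introns of genes on the same strand, so a fragment of host RNA would be counted there too. Whether the reads came from processed hairpins or from other host RNA was not tested. Over all microRNA genes, opposite-strand reads came to 8.11% and 6.11% of the own-strand reads in animals 1 and 2. Nearly all of them, 308490 and 158891, lay at genes outside the block that are in no same-strand intron. Other genes inside introns, away from both intron ends, had 367 and 204, against 2303259 and 1575050 own-strand reads. Other genes with a hairpin at the 3′ intron end alone, or filling an intron, had 0. So few opposite-strand reads were not particular to the block.

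Mir7080 (ENSMUSG00000098582.1) and Mir6944 (ENSMUSG00000098341.1) stood above the rest. Mir7080 fills an intron of 67 bases in Cpne7, a gene for a copine, a calcium-dependent phospholipid-binding protein. Some transcripts of Cpne7 retain that stretch as exon in the annotation. It had 498 reads in animal 1 (130.8 CPM) and 89 in animal 2 (34.2 CPM), a mean of 82.5 CPM ± 68.3 (SD, n = 2). Mir6944 fills an intron of 96 bases in Dbn1, which encodes drebrin, an actin-binding protein of dendritic spines. It had 408 reads in animal 1 (107.2 CPM) and 139 in animal 2 (53.4 CPM), a mean of 80.3 CPM ± 38.0. Mir7080 was the higher of the pair in animal 1 and the lower in animal 2, so the order of the 2 genes was not the same in both animals. Together they held 28.3% of the members' reads in animal 1 and 18.1% in animal 2. Among all microRNA genes they ranked 216 and 218 by mean CPM.

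The other 7 members past the threshold lay close to it. Mir7044, in an intron of Rasgef1a, a guanine nucleotide exchange factor gene, had 98 and 38 reads in animals 1 and 2 (25.7 and 14.6 CPM). Mir7047 had 98 and 29 reads (25.7 and 11.1 CPM). Mir7059, in an intron of Cln3, which encodes a lysosomal membrane protein, had 82 and 36 reads (21.5 and 13.8 CPM). In both animals the exact intervals of these 3 genes lay below those of Mir7080 and Mir6944. The hairpin of Mir7044 also overlaps an exon of another Rasgef1a transcript. Mir7070, which fills an intron of 86 bases in the F-box gene Fbxw9, had 60 and 40 reads (15.8 and 15.4 CPM). Mir7004, in the flippase gene Atp9a, had 74 and 28 reads (19.4 and 10.8 CPM). Mir7066, in Ncan, the gene for the brain matrix proteoglycan neurocan, had 68 and 32 reads (17.9 and 12.3 CPM). Mir7069, in Farsa, a subunit gene of phenylalanyl-tRNA synthetase, had 59 and 27 reads (15.5 and 10.4 CPM). Ordered by mean CPM, each of these 7 had an exact interval that overlapped that of the next in both animals. Differences between neighbours in the order were not tested.

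Members just outside the threshold differed from these by few reads. Mir6994, in Patl1, an mRNA decay factor gene, had 38 reads in animal 1 (9.98 CPM) and 26 in animal 2 (9.99 CPM). Mir6900, in an intron of Ndufa10, a subunit gene of respiratory complex I, had 36 reads in animal 1 (9.46 CPM) and 54 in animal 2 (20.7 CPM), and no other member reached 10 CPM in animal 2 alone. At 10 CPM in animal 1 alone stood 7 members. Of these, Mir7019, in the mitochondrial kinase gene Pink1, had 60 and 18 reads (15.8 and 6.92 CPM). Mir7083, in Dock6, a guanine nucleotide exchange factor gene, had 62 and 16 (16.3 and 6.15 CPM). The 12 most abundant members held 47.6% of the block's mean CPM and the 50 most abundant 78.3%.

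**Figure D1:**
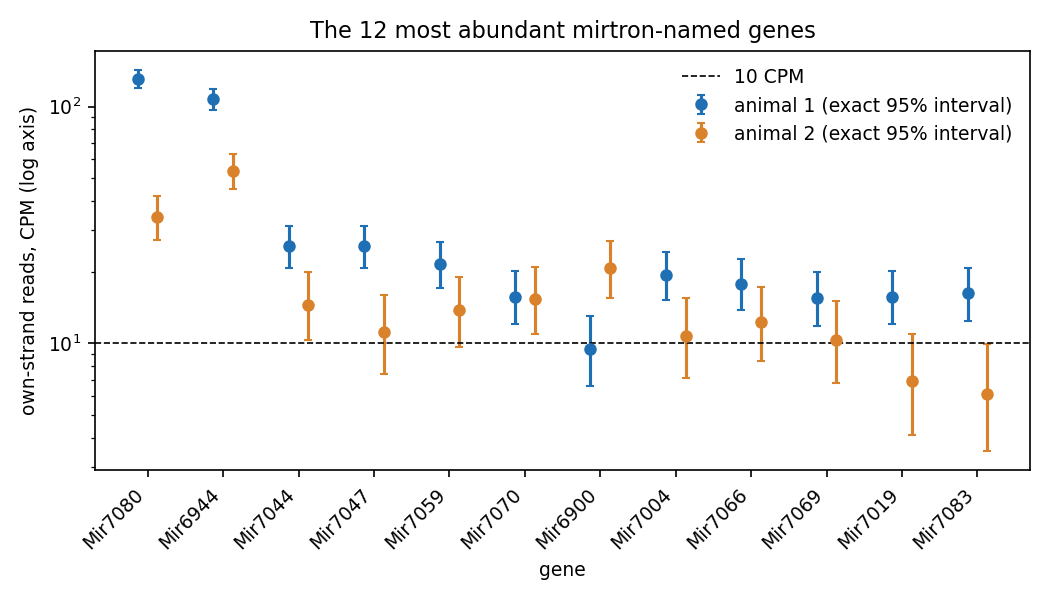
Own-strand CPM (log axis) of the 12 most abundant members in each animal, with exact 95% intervals for counting error and a dashed line at 10 CPM. Mir7080 (130.8 and 34.2 CPM) and Mir6944 (107.2 and 53.4 CPM) lie above the others, and of the 12 Mir6900 alone was higher in animal 2 (9.46 and 20.7 CPM).

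The position of the hairpins was that of tailed mirtrons for most members. The rule did not use position, but the block was named as mirtrons, so the position may follow from the naming. All 199 lay within an intron of a gene on the same strand or reached past its end by at most 30 bases, in 194 different host genes. The hairpin of 185 members ended exactly at the last base of an annotated intron. With a tolerance of 5 bases, 15 members had both hairpin ends at the ends of 1 intron, 171 had the 3′ end alone there, 4 had the 5′ end alone, and 9 had neither. Among the 171, the stretch between the start of the shortest such intron and the hairpin had a median of 512 bases, from 7 to 36205. Hairpins of the block were 52 to 137 bases long, with a median of 66. In 41 members the hairpin also overlapped an annotated exon on the same strand, and of the 9 detected members these were Mir7080 and Mir7044. The 41 include hairpins that run past the end of their intron into the exon beside it.

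Whole-intron members were at both extremes of the block. Of the 15, 3 were past the threshold (Mir7080, Mir6944 and Mir7070), and 6 had no read in either library. Of the 171 with the 3′ end alone, 6 were past the threshold and 23 had no read. Whole-intron members held 1032 of the 3206 reads in animal 1 and 295 of the 1261 in animal 2. Their median was 0.708 CPM, and that of the 171 tailed members 1.43 CPM. The 6 without reads were Mir6923 in Myh3, the embryonic skeletal muscle myosin gene, Mir7058 in Lat, an adaptor gene of T cells, Mir6974 in the lymphotoxin gene Lta, Mir7060 in Fbrs, Mir7088 in Mst1 and Mir6981 in Arap3. Next after Mir7070 came Mir6958 in Dennd6b, with 31 and 6 reads, and Mir7068 in Cherp, with 19 and 14. None of the 13 members with the 5′ end alone or neither end was past the threshold, and their highest count was 10 reads in a library.

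Tail length went with no ordered change in detection. Past the threshold were 1 of 32 tailed members with up to 50 bases before the hairpin, 1 of 52 with 51 to 500, 3 of 60 with more than 500 and up to 2000, and 1 of 27 with longer tails. Their median levels were 1.42, 1.95, 1.14 and 1.35 CPM.

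**Figure D2:**
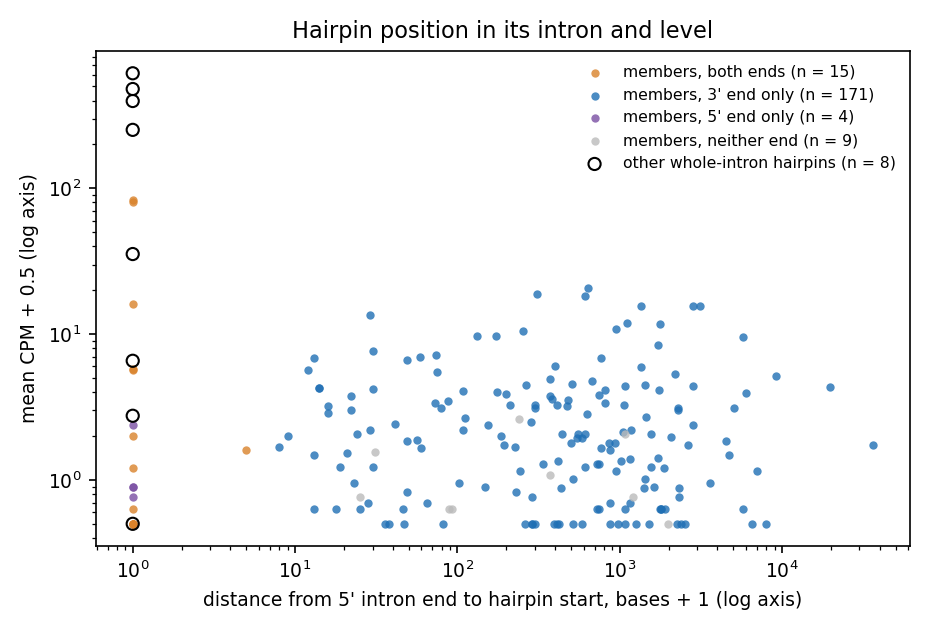
Distance between the 5′ intron end and the hairpin (bases + 1, log axis) against mean CPM + 0.5 (log axis) for each member, coloured by which hairpin ends meet an intron end, with other whole-intron hairpins as open circles. Points at the left edge start at the intron's first base, and they span the block from 0 to 82.5 CPM.

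The splice-site bases were in the sequences as well. Of the 154 hairpins with the 3′ end alone at an intron end, 153 ended in AG, the exception being Mir7010, which reached 1 base past the intron. All 12 whole-intron hairpins in the RefSeq table ended in AG and 10 of them began with GU; Mir7088 began with GC and Mir7082 with GA, the latter starting 4 bases before the annotated intron. Over all member hairpins 92.7% ended in AG, against 8.86% of 790 hairpins of other genes. The annotated 3p arms held a median of 72.0% pyrimidines (range 47.6 to 91.3, 175 sequences), against 54.5% in 527 3p arms of other genes. The 5p arms held a median of 31.8% pyrimidines and 44.0% G, against 50% and 27.3% in 523 others. The rule used none of these features. The block was named as mirtrons, however, so these features may follow from the naming and are no independent evidence.

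**Figure D3:**
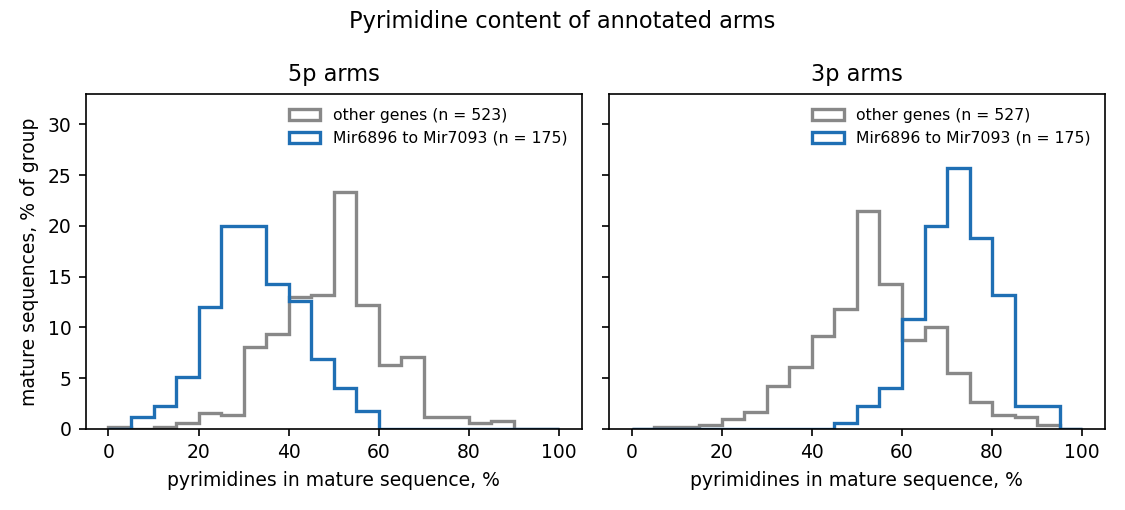
Share of pyrimidines (percent of bases) in annotated 5p and 3p mature sequences, as percent of each group, for members (175 of each arm) and other microRNA genes. Member 5p arms lie to the left of other genes (medians 31.8% and 50%), and member 3p arms to the right (72.0% and 54.5%).

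Some hairpins of the same geometry under other names reached higher levels. Outside the block 8 microRNA genes filled a whole intron, and 5 of them were past the threshold. Mir1224, in Vwa5b2, had 2592 reads in animal 1 (681 CPM) and 1427 in animal 2 (548 CPM). Mir1981, in Marc2, had 2047 and 1095 reads (538 and 421 CPM), and Mir877, in Abcf1, had 2152 and 592 (565 and 227 CPM). Each of these 3 well known mirtrons was above the highest member in both animals, and so was Mir3102 (285 and 217 CPM). Mir3547 (57.5 and 12.3 CPM) lay below Mir7080 and Mir6944 in both animals. Mir1982, Gm24589 and Gm27471 had means of 6.06, 2.25 and 0 CPM. Together the 8 genes held 0.178% of counted reads ± 0.0498 (SD, n = 2), against 0.0663% ± 0.0253 for the 199 members. Another 35 genes outside the block had the 3′ end alone at an intron end. They held 1.62% of counted reads ± 0.253 (SD, n = 2), mostly at Mir382 (13903 CPM in animal 1 and 17751 in animal 2). Next came Mir702, at 411 and 142 CPM. Of the 35 genes, 6 were past the threshold (17.1%), against 3.51% of the 171 tailed members. The median of the 35 was 1.63 CPM, against 1.43 CPM for the 171 tailed members. Of the 154 genes numbered from Mir5000 up to the block 8 passed it (5.19%), and of the 117 numbered after the block 5 (4.27%). Of the 179 genes with lower numbers from Mir1000 up 31 passed (17.3%), and of the 514 numbered below Mir1000 239 (46.5%). The share of 4.52% in the block lay between those of its neighbours by number, and no test of these shares was made.

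**Figure D4:**
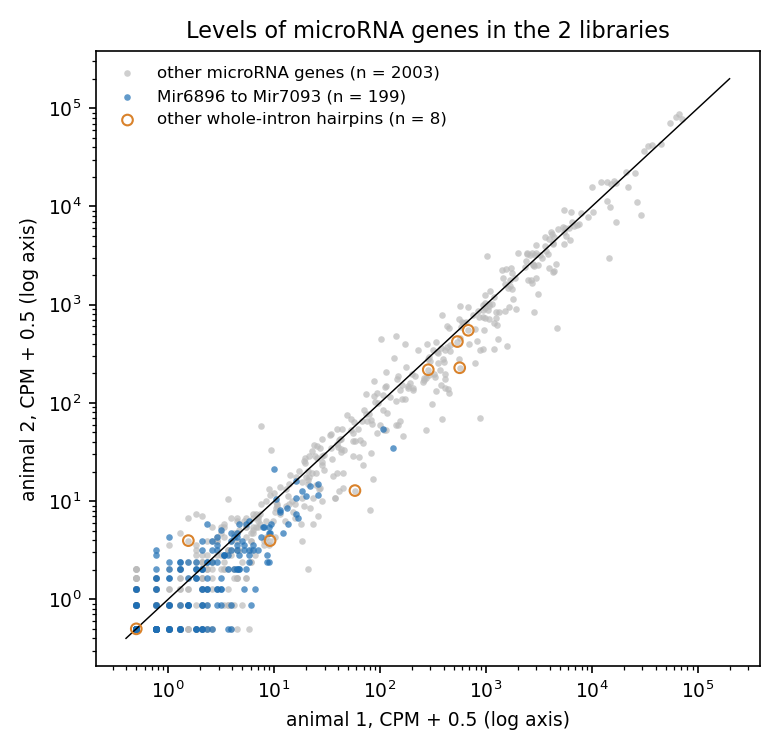
CPM + 0.5 of every microRNA gene in animal 1 and animal 2 (log axes), with members in blue, other whole-intron hairpins circled and a line of equal CPM. Most members lie below 10 CPM, with Mir7080 and Mir6944 highest among them, and 5 circled genes are above 10 CPM in both libraries.

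The 2 libraries were compared gene by gene with a two-sided exact binomial test given TMM effective library sizes, with Benjamini-Hochberg adjustment over all 531 genes that had at least 10 reads in sum. The test compares these 2 libraries, not conditions, and it knows counting noise alone. Of the 199 members 92 had enough reads to be tested; the other 107 had fewer than 10, and 77 of those had at least 1. By the adjusted p-value of the exact binomial test, 16 of the 92 were higher in animal 1 and 3 in animal 2, and 73 were not called. Over all tested genes 26.9% were called higher in animal 1 and 24.7% in animal 2, with 51.6% in either direction. Scaled by library totals in place of TMM, 189 of the 531 genes were called higher in animal 1 and 91 in animal 2, against 143 and 131, and of the members 18 and 3. Of these 16 members, 13 were at least 2-fold higher by their ratio.

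The calls that rested on most reads were those of Mir7080 and Mir6944. Mir7080 was higher in animal 1, with a log2 ratio of 1.73 (exact 95% interval 1.41 to 2.08; exact binomial test, adjusted p = 1.6e-31). Mir6944 was also higher in animal 1, by 0.80 (0.52 to 1.09; exact binomial test, adjusted p = 1.5e-08). Mir7047 was higher in animal 1 by 0.99 (0.39 to 1.66; exact binomial test, adjusted p = 0.0016). These intervals hold counting error alone, while the common biological coefficient of variation between the 2 animals was 38.0% over all tested genes.

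Of the other members higher in animal 1, Mir7083 (log2 ratio 1.17), Mir7019 (0.96), Mir7063 in Ap2a2, a clathrin adaptor gene (1.05), and Mir6897 in Uggt1, an endoplasmic reticulum glucosyltransferase gene (1.20), had at least 44 reads in animal 1. Mir6958 (1.53), Mir7046 in Rabac1 (1.81) and Mir6968 in Phf1 (1.77) had 31 to 32 reads in animal 1 and 5 to 6 in animal 2. A few rested on 1 or 2 reads in animal 2. Mir7036, in Srrt, had 21 and 1 reads (log2 ratio 3.09, exact interval 1.00 to 9.01), and Mir6939, in the kinase gene Akt1, had 23 and 2 (2.48, 0.76 to 5.90). Mir7054, in Scaf1, had 18 and 2 (2.14, 0.36 to 5.57), and Mir7024, in Nelfa, 13 and 1 (2.42, 0.21 to 8.36). Mir7039, in the ubiquitin ligase gene Smurf1, had 13 and 0 reads, and Mir6933, in Pgs1, had 12 and 0. Against a limit of 3 counts in animal 2, and with the reads of animal 1 taken as they stand, they were at least 2.57-fold and 2.38-fold higher. With counting error in both libraries the exact 95% intervals of their log2 ratios reached lower, starting at 0.86 for Mir7039 and 0.72 for Mir6933, with no upper end.

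The 3 members higher in animal 2 were Mir6900 (log2 ratio -1.33, exact interval -1.99 to -0.70), Mir7073 in Cnot1, a deadenylase scaffold gene (7 and 14 reads, -1.70, -3.30 to -0.35), and Mir6941 in the Notch ligand gene Jag2 (2 and 10 reads, -2.82, -6.30 to -0.84). Among members past the threshold that were not called, Mir7044 had a log2 ratio of 0.60 (0.06 to 1.20; exact binomial test, adjusted p = 0.051) and Mir7004 one of 0.64 (0.01 to 1.33; exact binomial test, adjusted p = 0.075). Mir7070 had a log2 ratio of -0.17 (-0.77 to 0.45), Mir7059 0.43 (-0.15 to 1.04), Mir7066 0.32 (-0.29 to 0.99) and Mir7069 0.36 (-0.30 to 1.09).

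**Figure D5:**
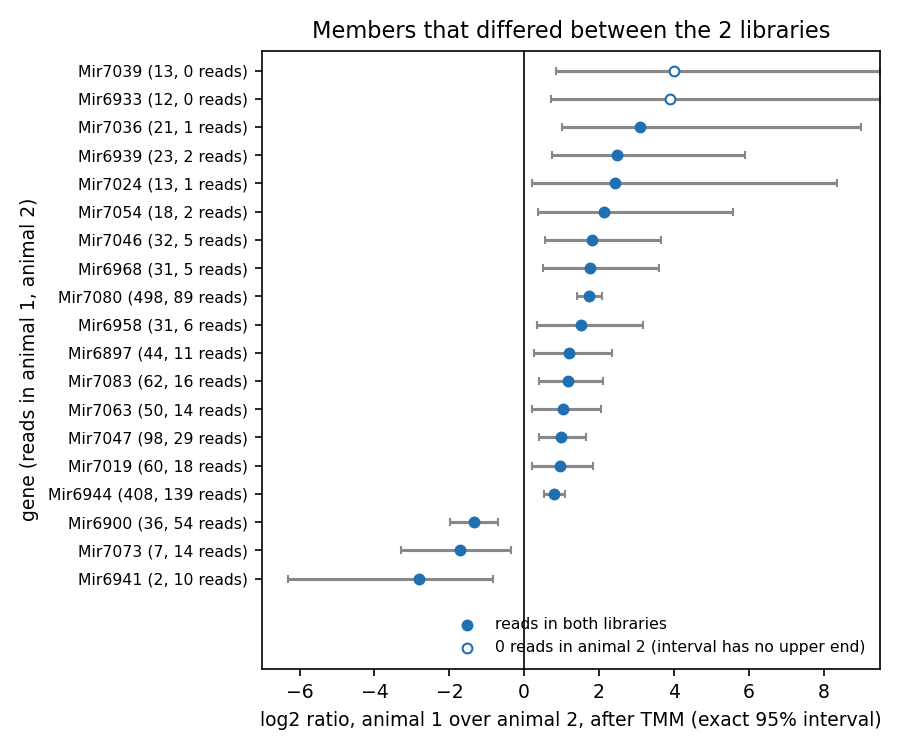
Log2 ratio of animal 1 over animal 2 after TMM for the 19 members called by the exact binomial test, with exact 95% intervals for counting error and the reads of each library beside the name. Filled points have reads in both libraries, open points have 0 reads in animal 2 and an interval drawn to the axis edge, and 16 points lie right of 0.

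As a group the tested members leaned to animal 1. The median log2 ratio of the 92 was 0.42, with 64 above 0 and 28 below, while the median over all 531 tested genes was 0.04. Of the 92, Mir7039 and Mir6933 alone had 0 reads in a library, and setting them at their bounds, which lie above 0.42, leaves the median where it is. Of the 84 members with 10 to 99 reads, 13 were called higher in animal 1 and 3 in animal 2 (15.5 and 3.57%). Among the 140 other genes with 10 to 99 reads the shares were 10.7 and 5.71%. Of the 8 members with 100 reads or more, 3 were called higher in animal 1 and 0 in animal 2 (37.5 and 0%). Among the 299 other genes of that depth the shares were 37.5 and 40.1%. Medians varied with tail length. The 12 tested members with more than 2000 bases before the hairpin had a median log2 ratio of -0.086, with 0 called higher in animal 1 and 1, Mir6900, in animal 2. Members with up to 50, 51 to 500 and more than 500 up to 2000 bases had medians of 0.50, 0.59 and 0.43, and the difference between these classes was not tested. The members' summed CPM was 1.74 times as high in animal 1 as in animal 2, and 1.51 times after TMM. Without Mir7080 and Mir6944, a choice made after their values were seen, these ratios were 1.52 and 1.32. For the 8 other whole-intron genes the ratios were 1.49 and 1.30, and of the 7 tested 5 were called higher in animal 1 and 1 in animal 2. Among the 5, Mir877 had a log2 ratio of 1.11, Mir1224 one of 0.11 and Mir1981 one of 0.15 (exact binomial test, adjusted p = 0.043 for Mir1224 and 0.011 for Mir1981). With DESeq2 size factors the ratios of Mir1224 and Mir1981 were 0.059 and 0.10, and neither was called (exact binomial test, adjusted p = 0.33 and 0.12). Other genes with the 3′ end alone at an intron end did not share the lean. The 19 tested had a median log2 ratio of -0.014, with 8 above 0 and 11 below. Of these 19, 1 was called higher in animal 1 and 2 in animal 2. The libraries also differed in other respects: unmapped reads were 17.9% of all reads in animal 1 and 23.6% in animal 2, and reads outside any listed gene 5.79% and 5.62%. Of the blood microRNAs, Mir451a stood at 27.9 CPM in animal 1 and 9.60 in animal 2, and Mir144 at 21.3 and 8.07. The whole list of 8 marker genes of liver, muscle, islet and blood, of which 2 were detected, summed to 185.8 and 185.2 CPM. The part of these differences in the members' ratios was not tested. Across the 92 tested members, Pearson's r between the libraries was 0.72 on log2(CPM + 0.5) and Spearman's rho 0.61, a description across genes of the same 2 libraries.

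As a check of the labelled tissue, the 6 genes picked for it, which make the neuron-enriched miR-128, miR-132, miR-137 and miR-138, were all detected, from 1089 CPM (Mir138-2) to 16214 CPM (Mir128-1) on average. Of the markers of other tissues, Mir122, Mir375, Mir451a and Mir144 stood between 14.7 and 109.8 CPM. Reads mapped to several positions were not counted to genes, so the level of a gene with near-identical copies is uncertain. That limit also holds for Mir128-1 and Mir128-2, and for Mir138-1 and Mir138-2. Each pair shares an annotated mature sequence, and all of these genes were detected. The copies of the neuronal miR-124 were below the detection threshold (Mir124a-1 at 3.05, Mir124a-2 at 1.11 and Mir124a-3 at 0.91 CPM on average). The muscle genes Mir1a-1, Mir1a-2, Mir133a-1 and Mir133a-2, which are copies too, had no read. Whether uncounted reads account for the miR-124 and muscle results was not tested. Neither result was taken as evidence on the labelled tissue. The depths were 3806078 and 2602935 counted reads, 33.5% and 30.4% of all reads.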

How the data were processed

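Small RNA libraries of 2 animals were analysed, 1 table each. Deposited notes name mm10 and GENCODE M21; aligner, counter and treatment of CAST alleles: not given in the sources used here. The deposited values are raw whole-number counts per hairpin gene in 3 columns (both strands, own strand, opposite strand); own-strand counts were used. The 4 rows of the authors' tables that name no gene were left out; reads mapped to several positions, which stand there, made up 42.7% and 40.4% of all reads, so the level of any member with a near-identical copy in the genome is uncertain. CPM and percentages were computed over all reads counted to microRNA genes. Introns came from M21 exons of all transcripts; where several matched, the 1 meeting more hairpin ends, then the nearest, was kept. TMM factors (1.07 and 0.932) came from edgeR 4.0.16 in R 4.3.3 and size factors from DESeq2 1.42.0. Log2 ratios add 0.5 to each count. The exact binomial test (threshold 0.05) ran in Python 3.11.15 with scipy 1.17.1 and was tested on simulated counts. With 1 group, no quasi-likelihood test of conditions could be fitted. Nothing in the labels shows separate litters, and a test on 2 libraries measures only the spread between them.

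Named were all members at 10 CPM or more in both libraries, the next by mean CPM to make 12, every member called by the test, the members with opposite-strand reads (up to 3), and Mir877, Mir1224 and Mir1981. Mir6994, Mir7068, Mir382, Mir702, members without reads or with stated sequence exceptions, and the remaining whole-intron genes outside the block were named after their values were seen. The host gene and sequences of 1 detected member are not reported here. The members and lists were chosen with earlier results of these data known. Alternatives were other thresholds, scalings, strand columns, count minimums, intron tolerances and single libraries.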

Additional observations from a re-analysis of the deposited data

How the results depend on the processing

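The count of members past the detection threshold depended on where it was set: 85 members reached 1 CPM in both libraries and 0 reached 100 CPM, against 9 at 10 CPM. With a single library, 10 to 16 members reached 10 CPM, with 16 where animal 1 was the library kept. Members with a read numbered 169, 135 to 162 in a single library, 104 with at least 2 reads in both libraries, and 2 in the opposite-strand column. The share of counted reads was 0.0484 to 0.0842% in a single library, 0.0717% in the unstranded column and, as a choice made after seeing the data, 0.0501% without Mir7080 and Mir6944. Library totals moved the median log2 ratio of all tested genes from 0.04 to 0.25 and that of members from 0.42 to 0.63, a shift that a scaling gives every gene alike. With a minimum of 1 count the medians were 0.07 and 0.59. Members higher in animal 1 numbered 15 to 18 with the other scalings, the unstranded column and a minimum of 1 count, and 14 without Mir7080 and Mir6944. Those higher in animal 2 numbered 3, or 5 with a minimum of 1 count, where 169 members were tested. With library totals the log2 ratio of Mir7070 was 0.031 in place of -0.17, uncalled in both, and Mir7044 and Mir7004 were called (exact binomial test, adjusted p = 0.0064 and 0.014), Mir7044 also in the unstranded column (adjusted p = 0.045). With a minimum of 1 count the calls of Mir7024 and of the comparison gene Mir1224 were lost (exact binomial test, adjusted p = 0.066 and 0.061). The log2 ratios of Mir7024 and Mir1224 stayed at 2.42 and 0.11, while the adjustment then ran over 770 genes in place of 531. The cause of the other changes was not tested. Whole-intron members numbered 14 to 18 and hairpins at the 3′ intron end alone 171 to 176 with the other tolerances and transcripts. Few reads limit most members: 107 of 199 had fewer than 10 in sum. No paired analysis was possible because the labels give 1 group.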

Other observations

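Some host genes are linked with a cell type, though they need not be specific to it. Their members are listed here by values, with hosts chosen after the values were seen. In hosts of neurons, besides Dbn1, Mir6982 in the kinase gene Camk2a had 22 reads in animal 1 and 7 in animal 2, Mir7055 in the vesicular glutamate transporter gene Slc17a7 had 8 and 9, Mir7056 in the phosphatase gene Ptpn5 had 18 and 8, and Mir7000 in the scaffold gene Mapk8ip1 had 20 and 5. Mir7025, whose hairpin overlaps an intron end of Pdgfra, a gene of oligodendrocyte precursors, had 8 and 0 reads. Mir6983 in Csf1r, a receptor gene of microglia, had 9 and 1. In hosts of muscle and lymphocytes, Mir6923 in Myh3, Mir7058 in Lat and Mir6974 in Lta had no read. The list is not complete, and Mir6961 in Bin2, Mir7086 in Il10ra and Mir6917 in Erbb3 also had no read. The list therefore does not show how often hosts of a cell type gave reads. Host transcripts were not measured in these libraries.

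The 350 annotated mature sequences of the members held 322 different seeds, 298 of them in a single member. The other 24 were shared, 4 of them by 3 members each: CACCCUG by Mir7018, Mir7023 and Mir7068, GGGCUGA by Mir6911, Mir7028 and Mir7079, GGGGAGG by Mir7030, Mir7075 and Mir7076, and GUGGGAG by Mir6922, Mir6993 and Mir7008. No mature sequence was identical in 2 members. No member past the detection threshold shared a seed with another such member.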
